A study of Mus musculus with 15 samples.

Results

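Of the genes that encode or report on the nuclear factor kappa B (NF-kB) pathway, 10 are described here across 15 mouse submandibular glands: the subunit genes Nfkb1, Nfkb2, Rel, Rela and Relb, the inhibitor and feedback genes Nfkbia and Tnfaip3, the target genes Birc3 and Traf1, and the kinase gene Map3k14. They were taken by gene name, as a list chosen with earlier results of these data known, and are 10 of 55401 genes in the deposited count matrix. All 10 passed the filter on low counts, as did 18136 genes in all. The control group is 5 glands of untreated ICR mice, an outbred stock. The model group is 5 glands of untreated NOD/LTJ mice, and the SJQYD group is 5 glands of NOD/LTJ mice that received SJQYD. All 15 libraries carry the genotype label WT. Age, sex, and the dose and duration of SJQYD are not given in the sources used here, nor is it said how the animals of a group relate, so that p-values measure the spread between these samples. Control and model mice differ in strain, so that effects of strain and of gland disease cannot be told apart in that comparison.

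NF-kB subunits act as dimers that are held inactive in the cytoplasm by inhibitor proteins. In the canonical arm, signals from receptors for tumour necrosis factor, interleukin-1 or microbial products lead to destruction of the inhibitor encoded by Nfkbia and release of dimers that contain Rela or Rel. In the noncanonical arm, the kinase encoded by Map3k14 drives processing of the Nfkb2 product, which pairs with Relb, in response to receptors such as those for lymphotoxin, CD40 ligand and B cell activating factor. NOD mice are known for lymphocyte infiltrates in the salivary glands, and NF-kB genes are expressed both in lymphocytes and in epithelium.

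Several of these genes are known to be targets of NF-kB itself, and the stretches before their starts are shown for the members that hold a kB decamer consensus, the classical NF-kB recognition motif. The RefSeq promoter table (GRCm38.p6) had entries for 8 of the 10 genes, without Nfkb1 and Relb. In the 250 bases before the start, 4 of these 8 genes (50.0%) held the consensus on either strand, against 2225 of 27025 genes in the table (8.23%). Counted by annotated start, it was 6 of 11 for these genes and 2382 of 32851 in the table (7.25%). The genes were chosen as NF-kB subunits and targets, so that the higher share is no independent result. Each stretch below is printed on the strand of its gene and limited to bases outside its annotated exons or, for Nfkb2, to 30 bases around a match. Capitals mark the bases that match the consensus on one strand or both, overlapping matches being merged.
Nfkb2, chr19:46304693-46304722, plus strand: gtcacGGGAATTCCCCccctcggggggccg
Rel, chr11:23770971-23771219, minus strand: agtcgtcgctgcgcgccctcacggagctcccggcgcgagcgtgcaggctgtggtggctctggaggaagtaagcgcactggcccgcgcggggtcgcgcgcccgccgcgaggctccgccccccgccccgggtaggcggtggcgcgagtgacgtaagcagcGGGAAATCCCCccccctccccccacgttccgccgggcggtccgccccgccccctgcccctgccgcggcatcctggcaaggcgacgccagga
Nfkbia, chr12:55492648-55492897, minus strand: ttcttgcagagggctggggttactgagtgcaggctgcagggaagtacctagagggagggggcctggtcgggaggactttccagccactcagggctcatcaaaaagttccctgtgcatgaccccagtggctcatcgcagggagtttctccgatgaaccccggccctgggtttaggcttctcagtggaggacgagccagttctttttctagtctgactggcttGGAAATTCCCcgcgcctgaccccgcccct
Tnfaip3, chr10:19015411-19015547, minus strand: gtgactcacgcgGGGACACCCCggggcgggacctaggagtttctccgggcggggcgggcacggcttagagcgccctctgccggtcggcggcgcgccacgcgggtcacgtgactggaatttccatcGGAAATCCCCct
The Nfkb2 match lies 39 to 29 bases before the start, with a further match 11 to 2 bases before it that is outside the printed stretch, the Rel match 92 to 82, and the Nfkbia match 29 to 20. Tnfaip3 has matches 125 to 116 and 12 to 3 bases before the start shown, and no match before its other annotated start. The other 2 annotated Nfkb2 starts have 1 match each. Rela, Birc3, Traf1 and Map3k14 held no match in this window. A match describes the letters and is not evidence of binding, and no match says only that these letters are not in the window.

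Total counts ran from 39510018 to 68694263 per library, and the lowest count of any of the 10 genes in any library was 39, far above the 3 counts (0.0290 to 0.0840 CPM) taken as the detection floor. Together the 10 genes took 0.00455 to 0.0191% of the counts, while the secretory gene Mucl2 alone took 15.5 to 53.8%. The scaling factors that correct for such dominant genes (TMM) ran from 0.594 to 1.85, and levels are given as normalised read counts (CPM, counts scaled to the TMM-adjusted library size). The 4 acinar markers summed to at least 86884 CPM in every library. Some libraries stood apart from their group. Control 2 held B cell markers at a summed 81.0 CPM, inside the range of the model glands (40.0 to 89.7) and above the other controls (up to 12.1). Model 3, control 2 and SJQYD 1 carried the highest parotid gland markers of their groups (132643, 41177 and 35098 CPM). Xist, expressed in females, was at 1.01 CPM in SJQYD 3 and at 162 to 270.2 CPM in the other 14 libraries. Adipocyte markers summed to 377 CPM in model 2 (14.9 to 25.5 in the other models) and to 258 CPM in SJQYD 5 (13.4 to 28.0 in the other SJQYD glands), and sublingual markers to 12.2 CPM in SJQYD 5 (2664 to 6610 in the others). Where leaving out one of these libraries changed a call of a member, the value without it is given.

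**Figure D1:**
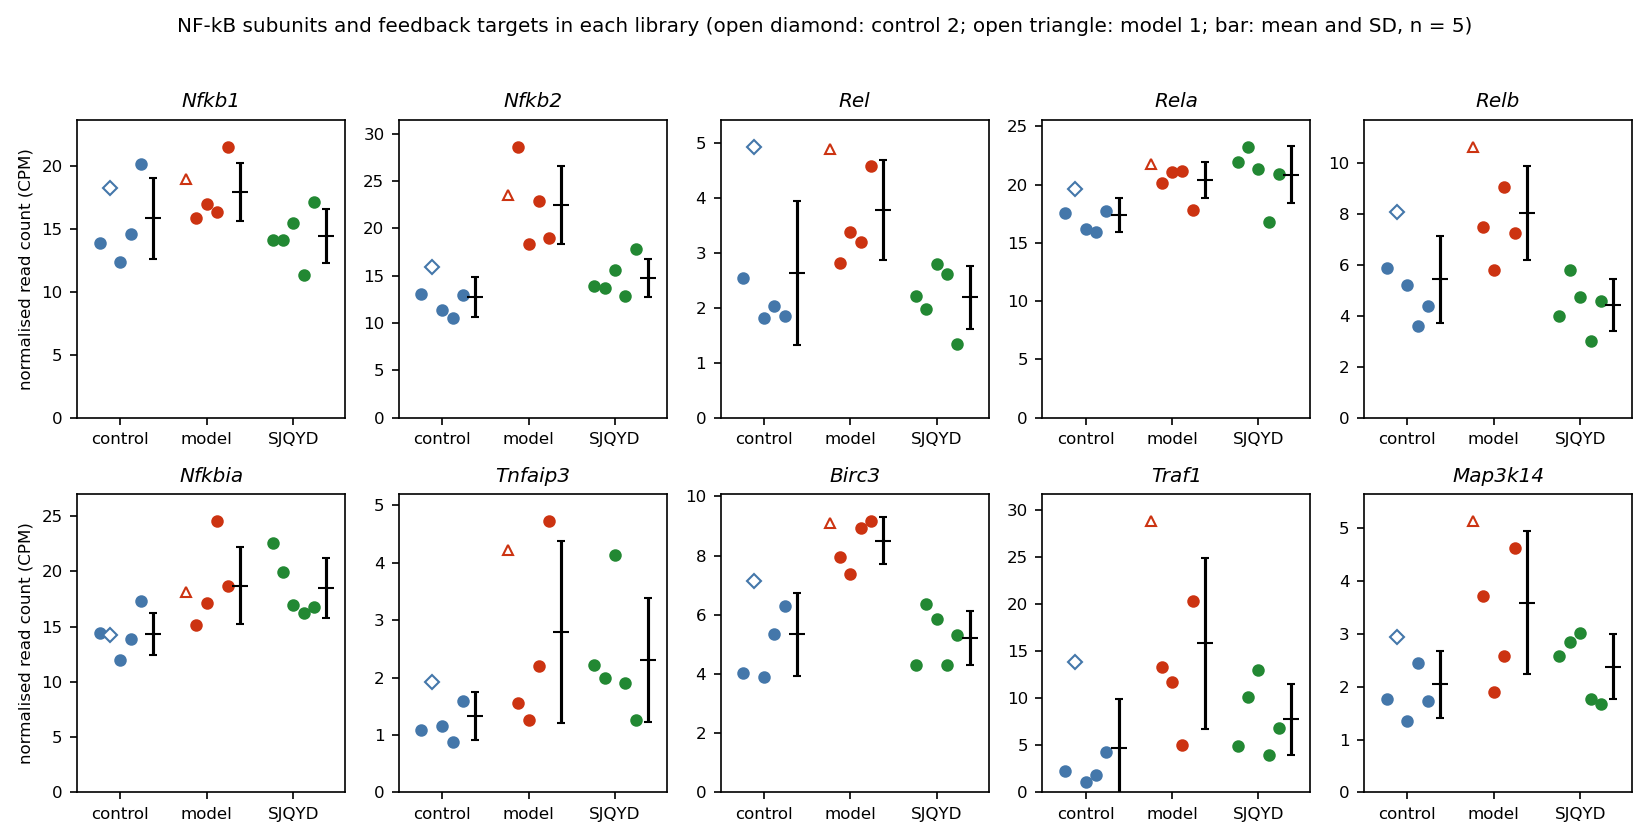
Normalised read count (CPM, y axis) of each of the 10 genes in every library of the control, model and SJQYD groups. Points are libraries, horizontal lines with bars are the mean and SD (n = 5), and a lower bar that would pass below 0 is not drawn past the axis; the open diamond is control 2 and the open triangle model 1. For Nfkb2 and Birc3 all 5 model points lie above all control and all SJQYD points.

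Nfkb2 and Birc3 rose in model glands compared with control glands, and these were the members called at an adjusted p under 0.05 (edgeR, Benjamini-Hochberg over all 18136 genes). That is 2 of 10 members called, against 5.07% of all genes called in either direction and 2.57% called higher. The same 2 genes had no overlap between the groups, as had 3.05% of all genes in this direction. The log2 fold change was above 0 for 10 of 10 members and for 53.3% of all genes, with a median of 0.62 over the members and 0.03 over all genes. At an unadjusted p under 0.05 stood 8 of 10 members and 21.9% of all genes.

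Nfkb2 (ENSMUSG00000025225, GRCm38 chr19:46304320-46312385, plus strand) encodes the precursor that is processed into the noncanonical subunit. In control glands it stood at 13.1, 16.0, 11.3, 10.5 and 12.9 CPM. Model glands had 23.5, 28.6, 18.4, 22.8 and 19.0 CPM. Every model library thus exceeded every control library. The means were 12.8 ± 2.09 and 22.5 ± 4.12 CPM (SD, n = 5 each), a log2 fold change of 0.82 ± 0.14 (SE) with an edgeR adjusted p of 0.00492. Leaving out any one of the 15 libraries kept the call, with log2 fold changes of 0.71 to 0.90 and adjusted p up to 0.0164. Nfkb2 overlaps 4833438C02Rik on the opposite strand over 1292 bases. That gene stood at 8.33 ± 1.55 CPM in control and 12.8 ± 3.14 CPM in model glands (SD, n = 5 each), with a log2 fold change of 0.62 ± 0.19 (SE) and an edgeR adjusted p of 0.0638. Psd, also on the opposite strand, overlaps Nfkb2 over 299 bases, with a log2 fold change of 0.36 ± 0.22 (SE) and an edgeR adjusted p of 0.339. The libraries keep strand, but the strand setting of the counting is not given in the sources used here, so that reads of overlapping genes could not be told apart.

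Birc3 (ENSMUSG00000032000, GRCm38 chr9:7848699-7873170, minus strand) encodes an inhibitor-of-apoptosis ubiquitin ligase that acts at tumour necrosis factor receptors and limits the Map3k14 kinase. Its control values were 4.03, 7.13, 3.89, 5.37 and 6.29 CPM. Its model values were 9.11, 7.96, 7.37, 8.95 and 9.16 CPM. The lowest model library was above the highest control, control 2, by a narrow margin. Birc3 means were 5.34 ± 1.41 and 8.51 ± 0.803 CPM (SD, n = 5 each), with a log2 fold change of 0.67 ± 0.18 (SE) and an edgeR adjusted p of 0.0378. The call depended on single libraries. The edgeR adjusted p was 0.0930, 0.0889 and 0.0738 without control 1, 3 or 4, and 0.0819, 0.0709, 0.0509 and 0.0804 without model 1, 2, 4 or 5. Without control 2 it was 0.0115, and with only the control and model libraries in the fit 0.0659.

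None of the other subunits passed the test between control and model glands with all libraries. Relb (ENSMUSG00000002983, GRCm38 chr7:19606217-19629438, minus strand), the partner of processed Nfkb2, was at 5.88, 8.07, 5.22, 3.60 and 4.38 CPM in control glands and at 10.6, 7.49, 5.78, 9.04 and 7.26 CPM in model glands. Control 2 lay above 3 of the model libraries and control 1 just above model 3, with a log2 fold change of 0.57 ± 0.22 (SE, with an adjusted p of 0.146 in edgeR). Rel, the subunit typical of lymphoid cells, was at 2.55, 4.93, 1.82, 2.03 and 1.85 CPM in control glands and at 4.89, 2.82, 3.37, 3.20 and 4.59 CPM in model glands. Control 2 was above every model library, while the other 4 controls were below all of them, and the log2 fold change was 0.51 ± 0.29 (SE, adjusted p = 0.314 in edgeR). Rela, the main transactivating subunit of the canonical arm, ranged from 15.9 to 19.6 CPM in control and from 17.8 to 21.8 CPM in model glands, with a log2 fold change of 0.23 ± 0.10 (SE, with an adjusted p of 0.198 in edgeR). Nfkb1, whose product is the usual Rela partner, ranged from 12.3 to 20.1 and from 15.9 to 21.5 CPM. Its log2 fold change was 0.18 ± 0.15 (SE, adjusted p = 0.508 in edgeR).

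Neither feedback inhibitor passed the test between control and model glands. Nfkbia, which encodes the inhibitor of canonical dimers, ranged from 12 to 17.3 CPM in control and from 15.2 to 24.5 CPM in model glands, with a log2 fold change of 0.38 ± 0.14 (SE, with an adjusted p of 0.116 in edgeR). Tnfaip3, a ubiquitin-editing enzyme that ends signalling from tumour necrosis factor receptors, was at 0.882 to 1.93 CPM in control glands. In model glands it was at 4.23 and 4.72 CPM in model 1 and 5, and at 1.25 to 2.20 CPM in the other 3. Its log2 fold change was 1.07 ± 0.39 (SE, adjusted p = 0.117 in edgeR).

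Traf1, a signalling adaptor found mainly in activated lymphocytes, had the widest range of the 10 genes. Control values were 2.29, 13.9, 1.16, 1.82 and 4.28 CPM, so that control 2 was more than 3 times the next control. Model values were 28.8, 13.3, 11.7, 5.05 and 20.3 CPM. With all libraries the log2 fold change was 1.75 ± 0.66 (SE, adjusted p = 0.142 in edgeR), and without control 2 it was 2.71 (edgeR adjusted p = 0.0101). Map3k14, the kinase of the noncanonical arm, was at 1.35 to 2.94 CPM in control and at 1.91 to 5.13 CPM in model glands, with a log2 fold change of 0.81 ± 0.29 (SE, with an adjusted p of 0.112 in edgeR). Leaving out control 2 also brought Rel (log2 fold change 0.86, edgeR adjusted p = 0.0359) and Relb (0.75, edgeR adjusted p = 0.0375) past the threshold, so that 5 members were called in place of 2. All genes called rose from 920 to 1799 in that fit. Without model 1 the edgeR adjusted p rose instead, to 0.509 for Rel, 0.308 for Relb and 0.277 for Traf1. The lowest log2 fold changes of these genes in the fits without one library were 0.40, 0.45 and 1.42, in the same order. Control 2 stood apart from the other controls by its Rel and Traf1 values themselves, so that leaving it out is no independent check of these genes.

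**Figure D2:**
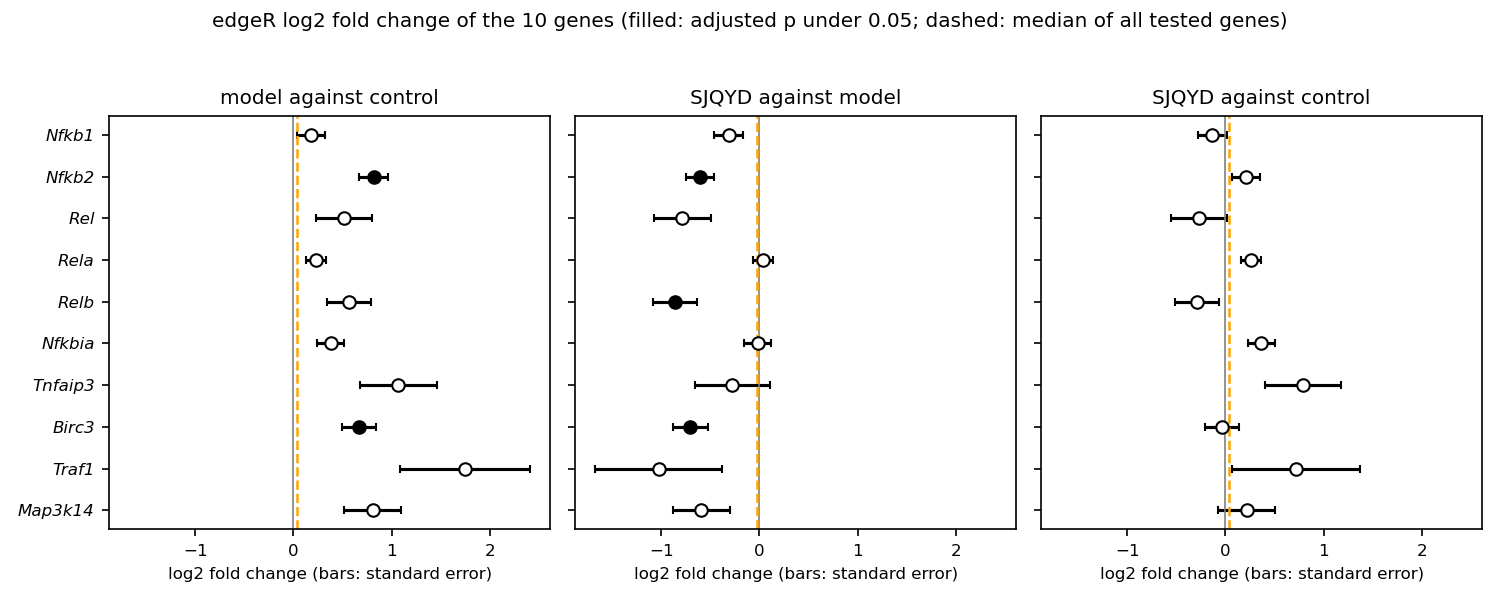
Log2 fold change (x axis) of each of the 10 genes in the 3 comparisons, from the edgeR fit of all 15 libraries. Points are estimates, bars their standard errors, filled points have an adjusted p under 0.05, and the dashed line is the median of all tested genes; Nfkb2 and Birc3 are filled for model against control, Nfkb2, Relb and Birc3 for SJQYD against model, and none for SJQYD against control.

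In SJQYD glands Nfkb2, Relb and Birc3 fell compared with model glands. These were 3 of 10 members called, all lower, against 2.75% of all genes called in either direction and 0.838% called lower. Nfkb2, Rel and Birc3 had no overlap between the groups, as had 2.29% of all genes in this direction. At an unadjusted p under 0.05 stood 5 of 10 members (Nfkb1, Nfkb2, Rel, Relb and Birc3) and 16.2% of all genes. The median log2 fold change was -0.60 over the members and -0.03 over all genes. This comparison shares its 5 model libraries with the first, so a library that is high in the model group raises the one difference and lowers the other, and the signs of both are not independent.

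Nfkb2 was at 13.9, 13.7, 15.6, 12.8 and 17.8 CPM in SJQYD glands, all below the lowest model library (18.4 CPM). The mean of 14.8 ± 1.98 CPM (SD, n = 5) gave a log2 fold change of -0.61 ± 0.14 (SE) against the model, with an edgeR adjusted p of 0.0287. The direction was kept without any one library, but the call was lost without model 1 or 2 (edgeR adjusted p = 0.0659 and 0.0801) and without SJQYD 1, 2, 3 or 4 (0.0796, 0.0707, 0.0501 and 0.0824). The antisense gene 4833438C02Rik was at 10.1 ± 2.17 CPM in SJQYD glands (SD, n = 5), a log2 fold change of -0.34 ± 0.19 (SE, with an adjusted p of 0.394 in edgeR).

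Relb was at 4.01, 5.79, 4.75, 3.00 and 4.59 CPM in SJQYD glands. SJQYD 2 reached the lowest model library, model 3, and the others lay below it. With means of 4.43 ± 1.02 and 8.04 ± 1.85 CPM (SD, n = 5 each), the log2 fold change was -0.86 ± 0.22 (SE) and the edgeR adjusted p 0.0493. This call stood at the threshold. It held in 4 of the 15 fits without one library, those without control 2 or 4, model 3 or SJQYD 2. The edgeR adjusted p was 0.126, 0.0791, 0.0856 and 0.0706 without model 1, 2, 4 or 5, and 0.116, 0.0762, 0.121 and 0.0766 without SJQYD 1, 3, 4 or 5. Without control 1, 3 or 5, which enter through the shared spread, it was 0.0601, 0.0627 and 0.0510.

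Birc3 was at 4.29, 6.35, 5.85, 4.30 and 5.31 CPM in SJQYD glands, all below the lowest model library (7.37 CPM). The mean of 5.22 ± 0.921 CPM (SD, n = 5) gave a log2 fold change of -0.71 ± 0.18 (SE) against the model, with an edgeR adjusted p of 0.0395. The call held in 5 of the 15 fits without one library (control 1, 2, 3 or 5, or SJQYD 2). Without control 4 the edgeR adjusted p was 0.0517. Without model 1 to 5 it was 0.0874, 0.0644, 0.0522, 0.0680 and 0.0825, and without SJQYD 1, 3, 4 or 5 it was 0.110, 0.0552, 0.105 and 0.0656.

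The 3 falls were also not called without the libraries with the highest parotid markers (control 2, model 3 and SJQYD 1), where the edgeR adjusted p was 0.0533 for Nfkb2, 0.0627 for Relb and 0.0997 for Birc3. Limma on log2(FPKM + 1), a scale without the TMM correction, gave adjusted p of 0.460, 0.338 and 0.365. DESeq2 gave 0.00454, 0.00921 and 0.00624.

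Rel was at 2.21, 1.97, 2.79, 2.62 and 1.35 CPM in SJQYD glands, below all model libraries (2.82 to 4.89 CPM). The gap between SJQYD 3 and model 2 was small, and the log2 fold change of -0.78 ± 0.29 (SE) did not pass the test (edgeR adjusted p = 0.172). Nfkb1 ranged from 11.3 to 17.1 CPM in SJQYD glands, with a log2 fold change of -0.31 ± 0.15 (SE, with an adjusted p of 0.294 in edgeR). Rela and Nfkbia gave estimates near 0. Rela ranged from 16.8 to 23.3 CPM, with a log2 fold change of 0.03 ± 0.10 (SE) and a 95% interval of -0.17 to 0.23 (edgeR adjusted p = 0.928). Nfkbia ranged from 16.2 to 22.6 CPM, with a log2 fold change of -0.02 ± 0.14 (SE) and a 95% interval of -0.29 to 0.25 (edgeR adjusted p = 0.975).

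Tnfaip3 and Traf1 spread widely within the SJQYD group (SD of 47.0 and 48.3% of the mean), and Map3k14 less so (26.0%). Tnfaip3 was at 4.13 CPM in SJQYD 3 and at 1.26 to 2.22 CPM in the other 4, with a log2 fold change against the model of -0.28 ± 0.38 (SE, adjusted p = 0.792 in edgeR). This value rested on single libraries and ran from -0.60 without SJQYD 3 to -0.0061 without model 5, with -0.43 and -0.46 without model 2 or 3, -0.079 without model 1 and -0.12 without SJQYD 5. Traf1 was at 4.89, 10.2, 13.0, 4.0 and 6.85 CPM, again highest in SJQYD 3, with a log2 fold change of -1.03 ± 0.65 (SE, with an adjusted p of 0.486 in edgeR). Map3k14 ranged from 1.68 to 3.03 CPM, with a log2 fold change of -0.59 ± 0.29 (SE, with an adjusted p of 0.325 in edgeR).

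**Figure D3:**
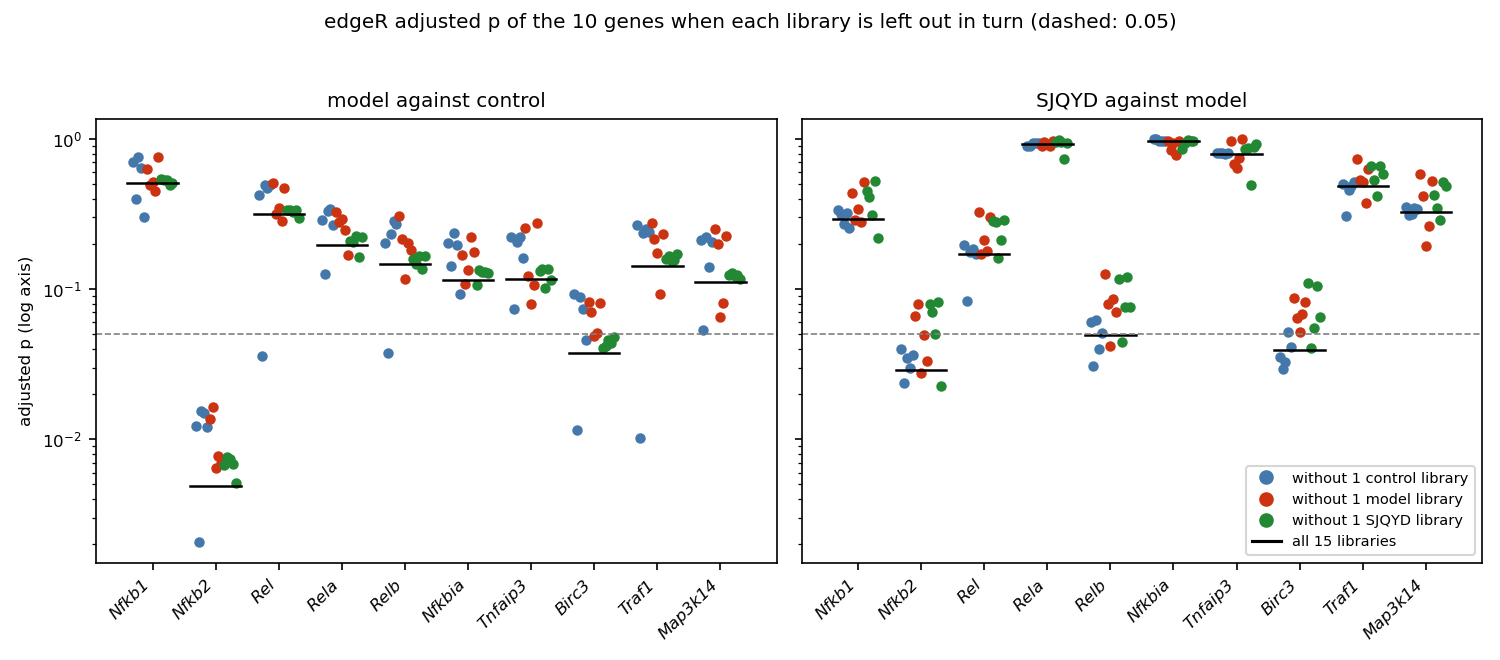
Adjusted p (y axis, log scale) of each of the 10 genes from edgeR in the fit of all 15 libraries and in the 15 fits that leave out 1 library. Black marks are all libraries, coloured points are fits coloured by the group of the library left out, and the dashed line is 0.05. For model against control all Nfkb2 points lie under the line, while for SJQYD against model the points of Nfkb2, Relb and Birc3 lie on both sides of it.

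Between SJQYD and control glands no member was called by edgeR, against 11.1% of all genes. Rela and Nfkbia were the 2 of 10 members with an unadjusted p under 0.05, against 26.6% of all genes, and DESeq2 called 0 members. Limma on log2(FPKM + 1), which tested 7 of the 10 (not Rel, Tnfaip3 and Map3k14), called 3 (Nfkb2, Rela and Nfkbia), on a scale where the median of all genes was itself raised by 0.33. On that scale limma called a larger share of all genes than the 11.1% of edgeR, with totals in the section on processing. The 3 of 7 are therefore not to be read against the edgeR share. The largest of these edgeR estimates, for Tnfaip3, was 0.79 ± 0.39 (SE, adjusted p = 0.206) and 0.47 without SJQYD 3. Rela had a log2 fold change of 0.26 ± 0.10 (SE, with an adjusted p of 0.107 in edgeR), which passed without SJQYD 4 (0.33, edgeR adjusted p = 0.0484). Nfkbia had 0.36 ± 0.14 (SE, adjusted p = 0.0980 in edgeR). For Nfkb2 the log2 fold change was 0.21 ± 0.14 (SE) with a 95% interval of -0.07 to 0.49 (edgeR adjusted p = 0.376), and for Birc3 it was -0.04 ± 0.18 (SE) with an interval of -0.38 to 0.31 (edgeR adjusted p = 0.927). Relb stood at -0.30 ± 0.22 (SE) with an interval of -0.73 to 0.14 (edgeR adjusted p = 0.439). Traf1 was at 0.72 ± 0.65 (SE, adjusted p = 0.534 in edgeR), and passed without control 2 (1.70, edgeR adjusted p = 0.0486). It was 0.46 without SJQYD 3 and 0.47 without control 3. A p that misses the threshold does not show that SJQYD and control glands had the same levels.

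Levels of different genes can be compared only per length, and for this the FPKM values of the authors (fragments scaled to gene length and library size, without the TMM correction) are given as medians of the control, model and SJQYD libraries. Nfkbia stood highest, at 6.50, 10.9 and 10.4 FPKM, followed by Rela at 3.86, 6.34 and 6.89 and Nfkb2 at 1.73, 4.09 and 3.07 FPKM. In each of the 15 libraries Nfkbia was above Rela and Rela above Nfkb2, and the other 7 genes lay below Nfkb2. Relb (0.777, 1.86 and 1.21 FPKM), Birc3 (0.806, 1.5 and 1.15), Nfkb1 (0.911, 1.43 and 1.14) and Traf1 (0.151, 1.45 and 0.867) followed, with overlapping ranges and no fixed order among them. Overlapping these stood Map3k14 (0.174, 0.549 and 0.425 FPKM), Rel (0.174, 0.461 and 0.268) and Tnfaip3 (0.0957, 0.246 and 0.271). In control glands the Traf1 median was below those of Map3k14 and Rel. The lengths implied by counts and FPKM ran from 1883 bases (Nfkbia) to 14138 (Nfkb1), with 5369 for Nfkb2, and the order of genes rests on them. In FPKM, Nfkb2 was above Nfkb1 in each of the 15 libraries. In CPM, not scaled to length, mean Nfkb1 was above mean Nfkb2 in control glands (15.8 and 12.8). It was below in model (17.9 and 22.5) and SJQYD glands (14.4 and 14.8). The FPKM ratio of Nfkb2 to Nfkb1 ran from 1.69 to 2.50 in control, 2.33 to 4.75 in model and 2.56 to 2.99 in SJQYD glands. The SJQYD range thus lay above the control range and inside the model range. The ratio of Relb to Rela ran from 0.178 to 0.324 in control, 0.216 to 0.387 in model and 0.139 to 0.195 in SJQYD glands, and the SJQYD range lay below the model range. The ratio of Rel to Rela was between 0.0262 and 0.106 in all libraries. These ratios are taken within a library, so library scaling cancels, and they are given as a description with no test.

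**Figure D4:**
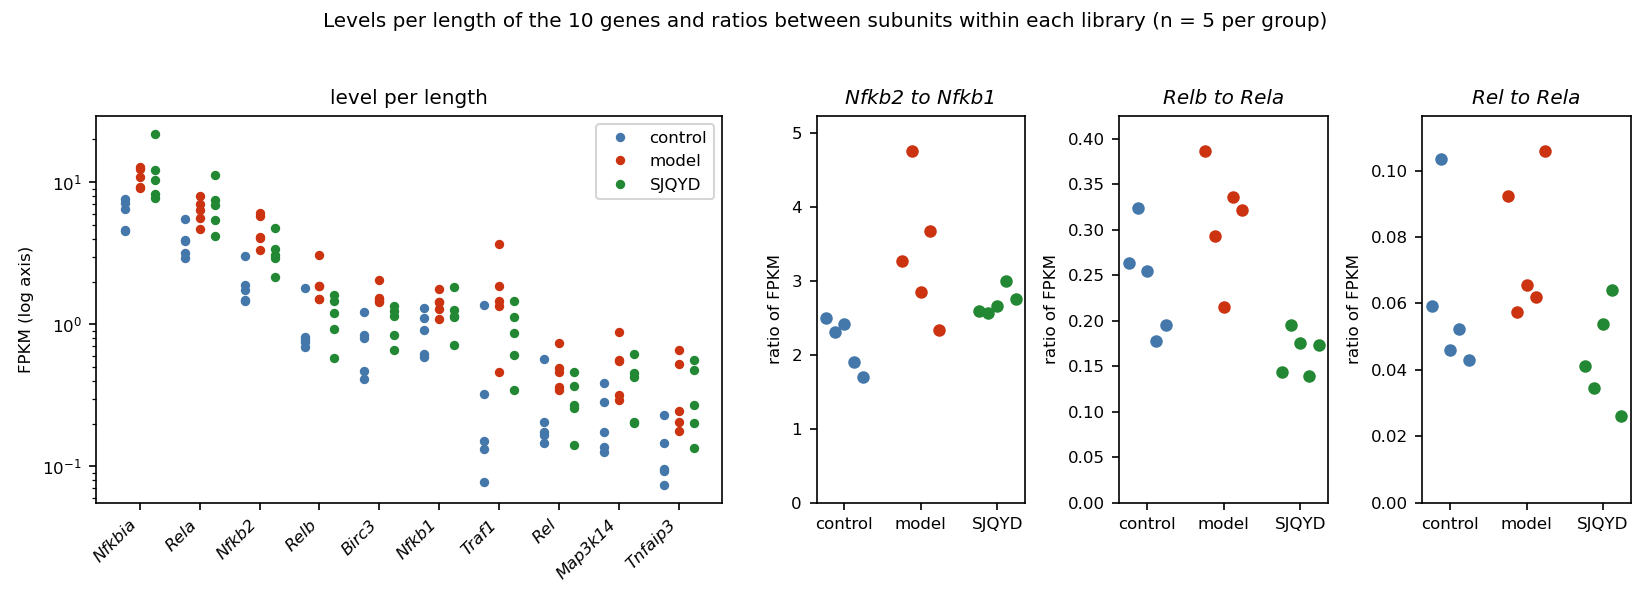
Level per length (FPKM, log axis) of the 10 genes in each library, and the ratios of FPKM between subunit genes within each library, by group (points are libraries, n = 5 per group). Nfkbia and Rela have the highest levels; the Relb to Rela ratios of the SJQYD libraries (0.139 to 0.195) lie below those of the model libraries (0.216 to 0.387).

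The other genes of the pathway were examined as 3 lists. Of 30 kinases, adaptors, ubiquitin ligases and inhibitors, all tested, 3 rose and 0 fell in model against control glands, with a median log2 fold change of 0.13 (0.03 over all genes). Of all genes edgeR called 5.07% in this comparison, 2.75% in SJQYD against model and 11.1% in SJQYD against control. The risers were Rnf31, the catalytic part of the linear ubiquitin ligase (0.62 ± 0.14, SE, adjusted p = 0.0169 in edgeR), the adaptor Traf2 (0.60 ± 0.15, edgeR adjusted p = 0.0340) and the inhibitor Nfkbie (1.32 ± 0.35, edgeR adjusted p = 0.0391). These were called in 13, 7 and 8 of the 15 fits without one library. DESeq2 called 5 higher and 1 lower, and limma on log2(FPKM + 1), which tested 29 of the list, 7 and 0. In SJQYD against model glands 1 rose and 1 fell, with a median of -0.06 (-0.03 over all genes). The kinase gene Chuk rose by 0.47 ± 0.11 (SE, adjusted p = 0.0222 in edgeR; called in 12 of 15 such fits), and the adaptor Tab2 fell by 0.61 ± 0.10 on the log2 scale (SE, adjusted p = 0.00309 in edgeR; called in 15 of 15). On the FPKM scales neither was called (adjusted p up to 0.446 and 0.442 in limma), limma on log2(FPKM + 1) called 0 of the list, and DESeq2 called 1 higher and 3 lower. Against control glands, SJQYD glands had higher Sharpin (0.43 ± 0.10, SE, adjusted p = 0.0121 in edgeR) and Traf2 (0.52 ± 0.15, edgeR adjusted p = 0.0370; called in 8 of 15) and lower Tab2 (-0.90 ± 0.10, edgeR adjusted p = 4.72e-05). Tab2 was not called on the FPKM scales (adjusted p up to 0.234 in limma), DESeq2 called 4 higher and 3 lower, and limma on log2(FPKM + 1) 10 and 0. These limma counts are to be read beside the limma totals over all genes, given in the section on processing. DESeq2 totals are given there for model against control and SJQYD against model only. The DESeq2 counts of SJQYD against control, here and in the lists below, thus have no background to compare with.

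Of 23 ligands and receptors upstream of NF-kB, 22 were tested and edgeR called 0 in each of the 3 comparisons. Over all genes it called 5.07%, 2.75% and 11.1% in the model-control, SJQYD-model and SJQYD-control comparisons. At an unadjusted p under 0.05 stood 3, 3 and 2 of the 22 in turn, against 21.9%, 16.2% and 26.6% of all genes. DESeq2 called 0, 1 and 0, and limma on log2(FPKM + 1), which tested 15 of the list, called 2, 0 and 4. Limma totals over all genes are given in the section on processing. The smallest p belonged to Tnfsf11, the ligand known as RANKL (log2 fold change 2.36 ± 0.94, SE, adjusted p = 0.151 in edgeR), to the interleukin-1 receptor gene Il1r1 (-0.73 ± 0.23, edgeR adjusted p = 0.105) and to the tumour necrosis factor receptor gene Tnfrsf1a (-0.37 ± 0.14, edgeR adjusted p = 0.101), in this order of comparisons. The Tnfrsf1a difference was above 0 on the FPKM scale (up to 0.18).

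Of 24 other NF-kB target genes, 19 were tested, and in model against control glands 5 rose and 1 fell. The median log2 fold change of the 19 was 0.77 (0.03 over all genes), and edgeR called 2.57% of all genes higher and 2.5% lower. The adhesion molecule genes Icam1 (1.09 ± 0.22, SE, adjusted p = 0.0111 in edgeR) and Vcam1 (1.15 ± 0.27, edgeR adjusted p = 0.0238) rose, as did the survival gene Bcl2a1b (1.60 ± 0.30, edgeR adjusted p = 0.00807), which has near-identical copies between which reads may be divided. Cxcl1 and Irf1 also rose. Sod2, the mitochondrial superoxide dismutase, fell by 0.56 ± 0.13 on the log2 scale (SE, adjusted p = 0.0223 in edgeR). Icam1 and Bcl2a1b were called in all 15 fits without one library, Vcam1 in 12, Sod2 in 10, Irf1 in 9 and Cxcl1 in 8. Sod2 was not called on the FPKM scales, where its log2 fold change was as small as -0.049 (adjusted p up to 0.825 in limma). DESeq2 called 7 higher and 1 lower, and limma on log2(FPKM + 1), which tested 14 of the list, 8 and 0. In SJQYD against model glands edgeR called 1.91% of all genes higher and 0.838% lower. Of this list 0 rose and 1 fell, with a median of -0.54 (-0.03 over all genes). This was Irf1, an interferon-linked transcription factor, which fell by 0.67 ± 0.13 on the log2 scale (SE, adjusted p = 0.0112 in edgeR; called in 15 of 15), but was not called on the FPKM scales (adjusted p up to 0.465 in limma). DESeq2 called 3 lower and limma on log2(FPKM + 1) 0. In SJQYD against control glands 1 rose, the ribonuclease gene Zc3h12a (0.65 ± 0.15, SE, adjusted p = 0.0107 in edgeR; called in 15 of 15), and 0 fell. Of all genes edgeR called 5.22% higher and 5.9% lower in this comparison. In this list DESeq2 also called 1 higher, and limma on log2(FPKM + 1) 4. Limma totals over all genes are given in the section on processing.

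The same libraries were compared for markers of immune and other cells. In bulk tissue, fewer cells of a type and less RNA per cell cannot be told apart. The 5 leukocyte markers summed to 35.7 to 177 CPM in control, 94.3 to 345 in model and 50.9 to 227 in SJQYD glands. The 8 T cell markers summed to 4.22 to 71.2, 19.4 to 155 and 7.49 to 96.1 CPM, and the 8 B cell markers to 0.271 to 81.0, 40.0 to 89.7 and 12.4 to 55.0 CPM. In control 3, 6 of the 8 B cell markers were at 0. The 8 macrophage markers summed to 66.2 to 124, 107 to 134 and 74.6 to 96 CPM, without overlap between model and SJQYD glands. With all 15 libraries 0 of the T and B cell markers were called in any comparison by edgeR or DESeq2. At an unadjusted p under 0.05 in edgeR stood 3 and 1 of 8 for model against control. Without control 2, all 8 B cell markers were called higher in model than control glands, while all genes called rose from 920 to 1799. Control 2 was singled out by these markers themselves, so that leaving it out is no independent check of them. Limma on log2(FPKM + 1) called 5 of the 8 B cell markers higher in model than control glands. Of the 8 macrophage markers edgeR called 2 higher in model than control and 1 lower in SJQYD than model glands, and DESeq2 4 and 3. The 4 plasma cell markers had 0 edgeR calls, with medians of 1.59 and -0.03 in these comparisons, and the 5 dendritic cell markers 0, with medians of 1.65 and -1.28. At an unadjusted p under 0.05 stood 3 and 0 of the former and 2 and 1 of the latter, and DESeq2 called 1 and 0, and 2 and 0. Of all genes edgeR called 5.07% and 2.75% in these comparisons, and 21.9% and 16.2% had an unadjusted p under 0.05. Other markers also differed. In SJQYD against model glands all 4 fibroblast markers had log2 fold changes under 0 (median -0.57, unadjusted p under 0.05 for 4, none called), as had all 3 duct markers (median -0.69) and 3 of 5 endothelial markers (median -0.56). In model against control glands edgeR called 1 of 3 erythrocyte and 1 of 3 skeletal muscle markers higher and 1 of 4 acinar markers lower. Control 2, which was the highest control for Nfkb2, Rel, Rela, Relb, Tnfaip3, Birc3, Traf1 and Map3k14, was also the highest control for the T and B cell markers, and had the lowest macrophage sum of all libraries (66.2 CPM). Model 1 and model 5, the highest model glands for Nfkb1, Rel, Tnfaip3, Birc3, Traf1 and Map3k14, had T cell markers at 155 and 140 CPM, against 19.4 to 27.0 in the other 3 model glands. Nfkb2 was instead highest in model 2 (28.6 CPM), where T cell markers summed to 27.0 CPM and macrophage markers to 134 CPM, the highest of all libraries. The part of these cell types in the differences of the 10 genes was not tested.

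**Figure D5:**
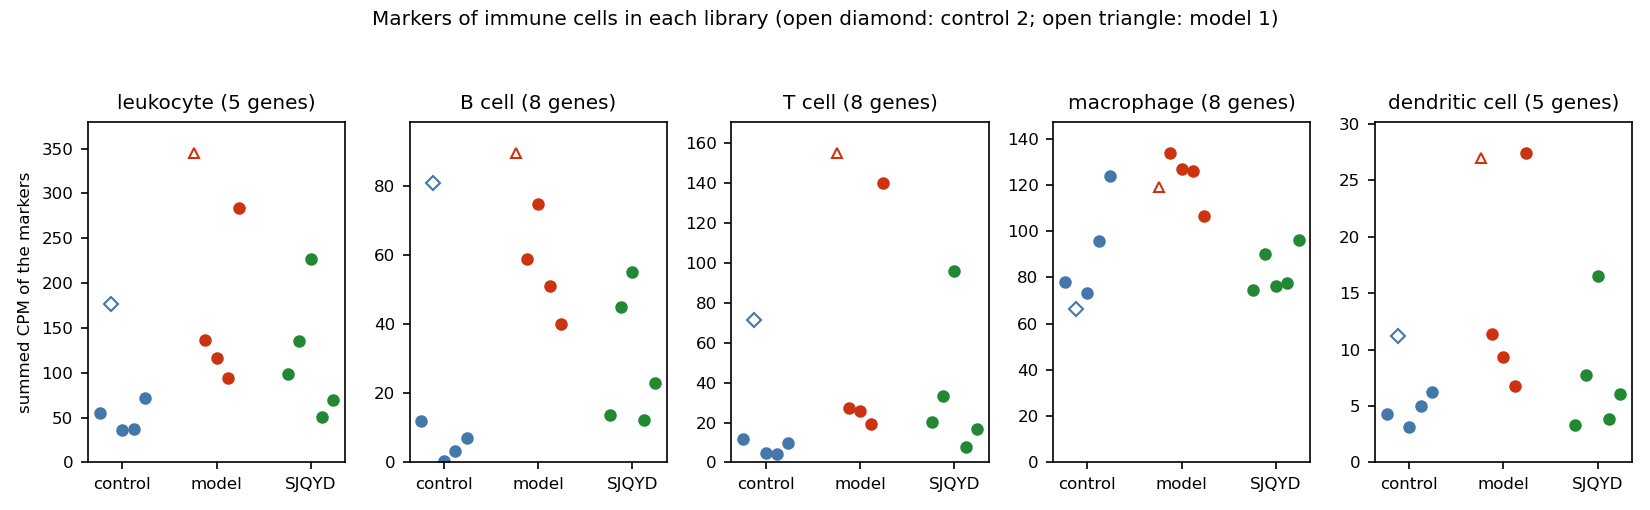
Summed CPM (y axis) of immune cell markers in each library by group (points are libraries, n = 5 per group; open diamond: control 2, open triangle: model 1). Control 2 lies at 81.0 CPM for B cell markers, within the model range of 40.0 to 89.7.

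How the 10 genes varied within groups was described by the correlation of log2 CPM over 15 libraries after each group mean was subtracted. These values share libraries, scaling and tissue makeup and carry no test. Over the 45 pairs of members, Pearson r ran from -0.09 to 0.74 with a median of 0.41. The highest values were those of Birc3 with Traf1 and with Nfkb1 (both 0.74) and of Rela with Relb (0.71). The lowest was that of Nfkb2 with Nfkbia. Among 11817 genes compared, those most like Traf1 were Grap, Tmem229b and Myo1g (r = 0.97, 0.97 and 0.96), and those most like Tnfaip3 were Tmem123, Arl4c and Ccl21a (0.92, 0.91 and 0.91). For Birc3 these were Snn, Ptpn22 and H2-K2 (0.92, 0.91 and 0.90), and for Map3k14 Pim2, Mob3a and Il2ra (0.90, 0.89 and 0.89). Nfkb2 had Tcf20, Pear1 and Atg9a (0.83, 0.82 and 0.82), and Relb had Secisbp2, Ifi208 and Rasgrp3 (0.88, 0.85 and 0.83). The nearest genes to Rel were Haus8, Lbr and Trim7 (0.87, 0.86 and 0.85), and to Nfkb1 Ms4a6c, Spn and Vrk3 (0.87, 0.86 and 0.86). For Rela they were Oas1g, Mrps9 and Tbc1d17 (0.82, 0.81 and 0.80), and for Nfkbia Lonp2, Anxa7 and Btf3 (0.88, 0.87 and 0.86). Each is the highest of 11817 values. Without the 2 libraries furthest from the median of the member, r was 0.73, 0.69 and 0.72 for Rel and 0.68, 0.69 and 0.72 for Rela. It was kept or rose for Nfkb2 with Pear1 (0.95), Birc3 with Ptpn22 (0.91) and Map3k14 with Pim2 and Mob3a (0.93 and 0.90), and fell for the other named genes.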

How the data were processed

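RNA from 15 submandibular glands was selected with oligo-dT beads and made into strand-marked libraries with molecular identifiers, per the labels' protocols. The authors deposited whole-number read counts for 55401 genes, and FPKM values, scaled to length and library size, for the 32479 of these with a count. The submitters' processing notes list edgeR, DESeq2, StringTie 1.3.4d, HISAT2 2.0.4, cutadapt 1.9 and UMI-tools without their roles, so that duplicate removal, the counting tool and its strand setting are not given in the sources used here. They name mm9, but 28337 of 32385 genes (87.5%) have the position that GRCm38 (GENCODE M21) gives, and GRCm38 is used here.

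Counts were tested with edgeR 4.0.16 (R 4.3.3): filterByExpr by group (18136 genes), TMM, robust quasi-likelihood fit of all 15 libraries with 1 mean per group, F tests of the 3 contrasts, and Benjamini-Hochberg adjustment, with 0.05 as the threshold. Samples were grouped by strain and treatment labels. Errors are SD over 5 libraries, or SE of a log2 fold change, with 95% intervals from the SE by a normal distribution. These intervals are somewhat narrower than the F test implies. For Map3k14 in SJQYD against model the interval was -1.16 to -0.03, although the unadjusted p of the edgeR F test was 0.0555. Floors of 3 counts cover counting error only. On simulated data the model against control test, run on 17402 genes, recovered 37.9% of 2-fold and 65.6% of 4-fold changes with 7 false among 106 calls; for SJQYD against model (17492 genes) these were 50.5% and 77.8% with 6 false among 131. In SJQYD against control (17442 genes) they were 40.2% and 77.6%, with 4 false among 119. Within groups, library pairs differed by a chi-square of at least 55.6 per gene, and none was treated as a copy.

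All 10 members are given in each comparison. In each pathway list up to 4 called genes with the smallest p are named, or the one with the smallest p where none was called; Cxcl1 and Irf1 in model against control were named in addition, to complete the count. For likeness the 3 genes with the highest r were named, among genes with a mean of at least 1 CPM and excluding predicted genes and antigen receptor segments. The members, lists and tests were chosen with earlier results of these data known. Alternatives were other normalizations, filters, DESeq2 1.42.0, limma 3.58.1 on log2(FPKM + 1) and log2(FPKM + 0.1) for 12436 genes with at least 0.5 FPKM in 5 libraries, a fit of the 2 groups compared, a replicate block, and leaving out libraries.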

Additional observations from a re-analysis of the deposited data

Results flagged for a closer look

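Both values marked here lie in control 2, as its distance to the nearest other library of the group exceeded Dixon's 95% critical value of 0.71 for 5 samples. Rel stood at 4.93 CPM in control 2 and at 1.82 to 2.55 CPM in the other 4 controls, a gap of 0.767 of the range. Traf1 stood at 13.9 CPM in control 2 and at 1.16 to 4.28 CPM in the other 4, a gap of 0.755 of the range. Of 30 sets of 5 libraries examined (10 genes in 3 groups) these were the 2 marked, and chance marks about 1 in 20 sets. Summed B and T cell markers in that library were 81.0 and 71.2 CPM, against at most 12.1 and 11.8 CPM in the other controls, and their part in the Rel and Traf1 values was not tested.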

How the results depend on the processing

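Of the alternatives tried, the call of Nfkb2 in model against control held in 26 of 26. Directions of Nfkb2, Relb and Birc3 in SJQYD against model held in 26 of 26 each. In model against control, 1779 genes were called by DESeq2, 1447 and 1958 by limma on log2(FPKM + 1) and log2(FPKM + 0.1), 466 with only the 2 groups, and 1507 without control 2, model 3 and SJQYD 1. Members called there were 5 of the 7 tested with either FPKM scale, 1 with only the 2 groups and 5 without those 3 libraries. The FPKM scales moved the median of all genes by 0.28 and 0.45, and 1407 and 1915 of their calls were higher, against 466 of 920. In SJQYD against model, 1058 genes were called by DESeq2, 68 and 57 on the FPKM scales, and 186 without the 3 libraries. Members called were 0 on both FPKM scales, 0 without the 3 libraries, and 0 without control 2 and model 1, a set chosen after seeing the data. In SJQYD against control, 3626 and 4046 of the 12436 genes tested were called on the FPKM scales, with 3 and 3 of the 7 members tested. There, 1 member (Traf1) was called without control 2 and model 1. The causes were not tested.

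Fits without one library called 354 to 1799, 333 to 527 and 1240 to 2626 genes in the model-control, SJQYD-model and SJQYD-control comparisons, and 1 to 5, 0 to 3 and 0 to 1 members. Some estimates of members that were not called changed sign. Not all were near 0, as Relb stood at -0.30 ± 0.22 and Rel at -0.27 ± 0.29 (SE) in SJQYD against control. For SJQYD against model, Nfkbia was 0.061 and 0.060 on the FPKM scales, and ran from -0.084 to 0.10 without one library, and Rela from -0.014 to 0.10. For SJQYD against control, the FPKM scales gave Nfkb1 0.21 and 0.39, Relb 0.14 and 0.25, and Birc3 0.23 and 0.48. On log2(FPKM + 1) the median of all genes was itself raised in this comparison. Without one library Rel ran from -0.38 to 0.090 and Birc3 from -0.13 to 0.091. They were 0.078 and 0.15 without the 3 libraries, and 0.10 and 0.10 without control 2 and model 1. Of the recomputed log2 fold changes of the 10 genes, 668 kept direction and side of the threshold, 49 lost a call, 22 gained one and 23 changed sign.

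Replicate numbers did not pair the libraries: 2 of 15 same-numbered correlations were over 0.1 (range -0.23 to 0.16) and 4 of 15 libraries correlated best with their own number. With a replicate block 896, 401 and 1799 genes were called, and 1 member (Nfkb2) in SJQYD against model, where the edgeR adjusted p of Relb and Birc3 was 0.0508 each. The lowest count of the 10 genes, 39, stood above the floor of 3.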
